A study of Rattus norvegicus with 37 samples.

Results

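Liver RNA was compared between rats given a large cage and rats given a tiny cage after the same contusion injury of the spinal cord. The 10 samples were taken by their labels, as the 5 In-Cage samples of CONT SCI + Large and the 5 In-Cage samples of CONT SCI + Tiny, out of 37 samples in the series. All were female Sprague Dawley rats, an outbred strain without any engineered allele, aged 8 to 9 weeks at injury. A contusion of 25 g-cm was made at the second thoracic level, and liver was collected 11.5 weeks later. Both groups therefore shared the laminectomy, the contusion and the drugs given around surgery, and differed in the cage. The tiny cage measured 7.5 by 8.5 inches and the large cage 16 by 20 inches per the labels, both 8 inches high. By the study's methods the size given for the large cage is that of its top, and its floor was smaller. Rats were housed in pairs, and the labels do not say which rats shared a cage, so the p-values treat the rats as independent. The 5 rats of No SCI + Standard were uninjured and lived in cages of 22 by 12.5 inches. They are given as a background level, since injury and cage size cannot be told apart between them and the contused rats. The question was whether room to move changed the liver transcriptome after contusion, and how large a change 5 rats against 5 could have shown.

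The liver makes most plasma proteins, stores and releases glucose, and handles lipids, bile acids and foreign compounds. Sympathetic outflow to the liver leaves the spinal cord below the high thoracic level, so an injury at that level can disrupt its descending control. Physical activity draws on liver glycogen and changes the supply of fatty acids to the liver. The deposited table names genes by Ensembl rat identifiers alone, and none of them could be paired with a symbol, so liver markers and pathways were not analysed here and genes are described by their level. In bulk liver RNA, fewer cells of a type and less RNA per cell cannot be told apart.

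Between 22165276 and 24039725 reads were counted on genes in the CONT SCI + Large libraries, with a median of 22871534. The CONT SCI + Tiny libraries held between 20066978 and 25130252 reads, with a median of 24694581. Genes detected by 1 count or more numbered from 14790 to 15126 in Large and 14746 to 15064 in Tiny. For both measures, many relabellings of the rats gave as large a difference of means (exact permutation test over 252 relabellings, two-sided, p = 0.548 for reads and p = 0.841 for genes, adjusted over 3 library measures p = 0.821 and p = 0.841). The smallest p that 5 rats against 5 allow is 0.00794. Of 24613 genes in the table, 17241 had a count in at least 1 of the 10 libraries and 13103 had a count in all 10.

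No gene passed the test between the large and the tiny cage. Of 11920 genes with enough counts, edgeR's quasi-likelihood test called 0 (0%) at an adjusted p under 0.05, and the smallest adjusted p was 1.00. An unadjusted p under 0.05 was reached by 346 genes (2.9%), of which 156 (1.31%) were higher in Large and 190 (1.59%) were lower. The 2.9% is less than the share of 0.05 that would pass if no gene differed. DESeq2's Wald test, run as an alternative, called 3 of 17235 genes (0.0174%), 2 of them higher in Large and 1 lower. The normalised values of the 5 Large rats lay wholly above those of the 5 Tiny rats in 31 genes (0.26%) and wholly below them in 33 genes (0.277%), 64 genes in all (0.537%). Relabelling the rats separates a gene wholly, in either direction, with a probability of 0.00794, and the share of 0.537% is below that. The number of genes at an unadjusted p under 0.05 varied with the rat left out. It was 673 of 11991 genes without CONT SCI + Large replicate 4 and 257 of 12010 without CONT SCI + Large replicate 2. With any other rat left out it ran from 311 to 409.

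The estimated differences were small. The median log2 difference, Large minus Tiny, was 0.01 over all genes tested, and the median size was 0.11. The 95th percentile of the size was 0.46. Only 62 genes differed by more than 1 on the log2 scale, which is a 2-fold change, and 45 of them had a mean below 100 reads per library. Of these 62 genes, 37 had an unadjusted p under 0.05. Counted by gene, the means of both cage groups were about equally often the nearer to the uninjured rats, and no test over rats was made. The mean of CONT SCI + Tiny was the nearer to No SCI + Standard in 49.2% of the genes tested, and in 32 of the 64 genes without overlap (50%).

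**Figure D1:**
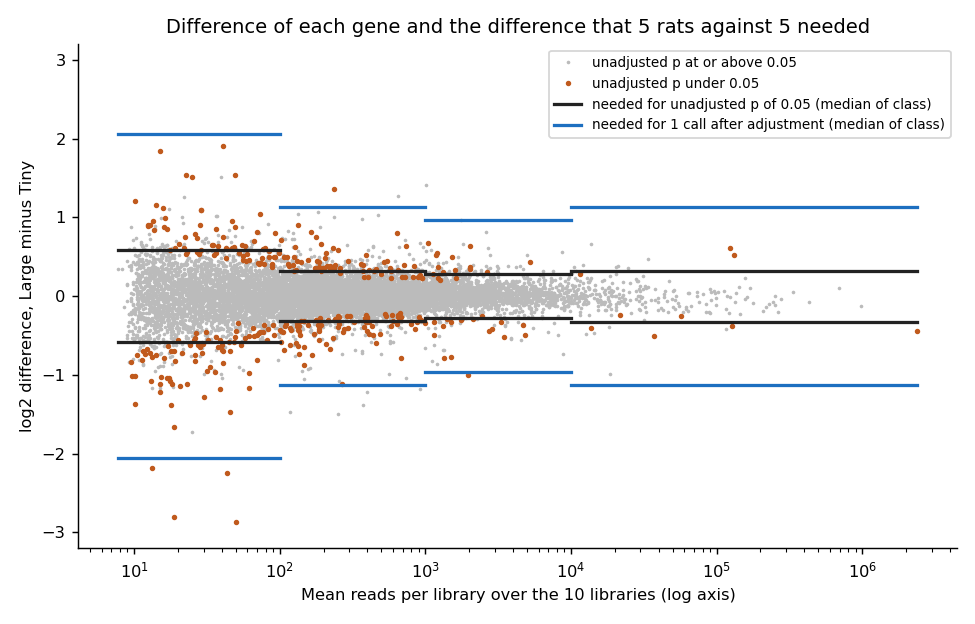
Each point is 1 of 11920 genes, placed by its mean reads per library over the 10 libraries (log axis) and its log2 difference, Large minus Tiny; orange points have an unadjusted p under 0.05. Black lines mark the median difference needed for an unadjusted p of 0.05 in each of 4 abundance classes and blue lines the difference needed for a single call after adjustment, which was 2.05 below 100 reads and between 0.96 and 1.13 above.

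ENSRNOG00000006766 had the smallest p of the comparison. Its level in the Large rats was 43.5, 29.1, 30.1, 33.8 and 34.3 CPM (counts scaled to library size by TMM, replicates 1 to 5), and in the Tiny rats it was 18.4, 26.1, 17.4, 18.9 and 17.6 CPM. Every Large rat was above every Tiny rat, and CONT SCI + Tiny replicate 2 came nearest to the Large rats. The mean was 34.1 ± 5.71 CPM (SD, n = 5) in Large and 19.7 ± 3.66 CPM in Tiny, beside 22.1 ± 6.11 CPM in No SCI + Standard. The log2 difference was 0.80 ± 0.15 (SE), with a 95% interval from 0.48 to 1.11. The adjusted p was 1.00 with edgeR and 0.0137 with DESeq2. This gene, ENSRNOG00000000900 and ENSRNOG00000019445 were named because DESeq2 called them in these same rats. Their separation and the size of their estimates are favoured by that choice.

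ENSRNOG00000000900 was the other gene that DESeq2 placed higher in Large. Its Large values were 82.5, 80.4, 76.6, 77.2 and 62.9 CPM and its Tiny values 61.9, 51.1, 51.4, 51.0 and 54.0 CPM. The groups did not overlap, but CONT SCI + Large replicate 5 and CONT SCI + Tiny replicate 1 were almost level. No SCI + Standard ran from 54.7 to 72.9 CPM, across the gap between both cage groups. The log2 difference was 0.50 ± 0.10 (SE, 95% interval 0.27 to 0.72), with an adjusted p of 1.00 in edgeR and 0.0286 in DESeq2.

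ENSRNOG00000019445 was the 1 gene that DESeq2 placed lower in Large, and it was scarce, with 5 to 135 reads per library. The Large rats held 0.556, 0.666, 0.215, 1.53 and 0.209 CPM and the Tiny rats 5.78, 1.56, 3.22, 2.63 and 1.98 CPM. CONT SCI + Large replicate 4 and CONT SCI + Tiny replicate 2 were almost level. The uninjured rats, from 0.483 to 3.73 CPM, overlapped both groups. The log2 difference was -2.24 ± 0.50 (SE, 95% interval -3.34 to -1.15), and a difference of 3.89 would have been needed for a single call with edgeR. Its adjusted p was 1.00 in edgeR and 0.0286 in DESeq2.

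Leaving out 1 rat brought 1 further gene past the threshold in edgeR. Without CONT SCI + Tiny replicate 2 this gene was higher in Large by 1.83 on the log2 scale (edgeR adjusted p = 0.0403). With all rats its log2 difference was 1.36 ± 0.34 (SE), with an adjusted p of 1.00 in edgeR and 0.130 in DESeq2. The 5 Large rats lay between 11.7 and 17.8 CPM. Of the Tiny rats, replicate 2 lay among them at 11.9 CPM, and the others between 2.65 and 5.79 CPM. In this gene and in ENSRNOG00000006766, the same Tiny rat was the highest of its group.

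**Figure D2:**
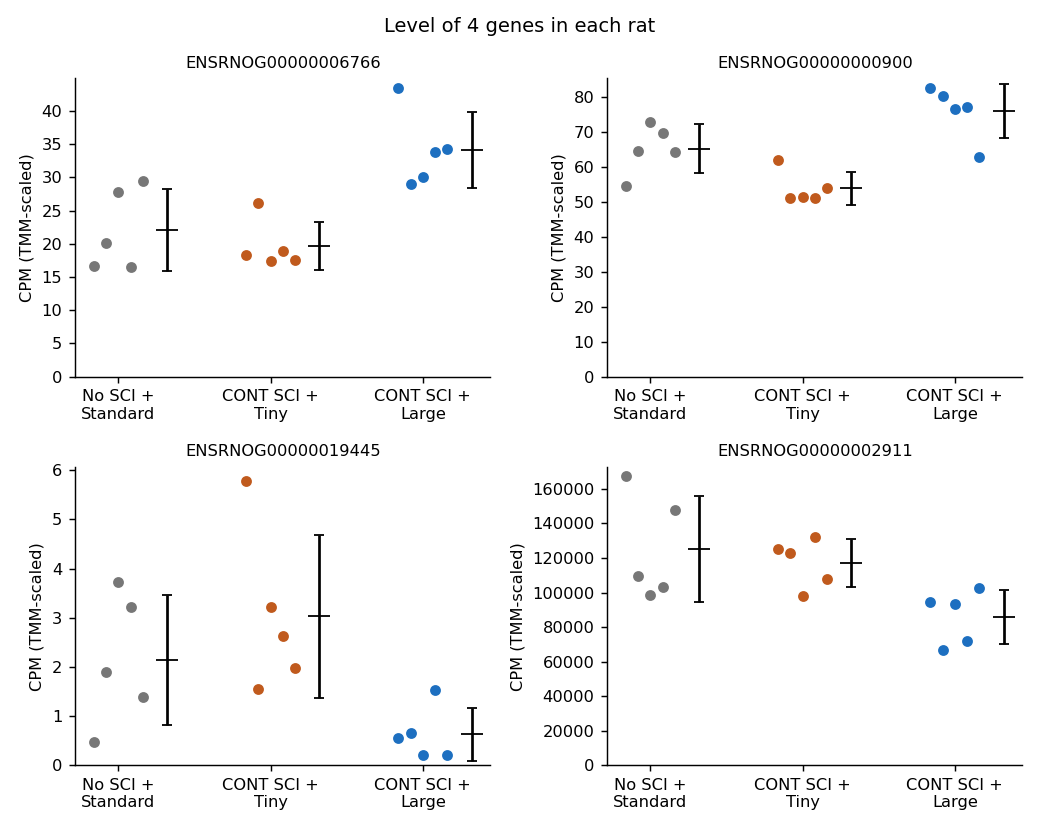
Each point is the level of 1 rat in CPM (linear axis from 0) and each bar the mean ± SD of 5 rats, for 3 genes that DESeq2 called and for ENSRNOG00000002911, the most counted gene. The Large rats do not overlap the Tiny rats in the first 3 panels and overlap them in the last. The first 3 genes were called in these same rats, which favours their separation.

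A few transcripts made up a large part of every library. The 10 most counted genes of a library held 25.2% ± 1.33 of its reads (SD, n = 5) in Large and 27.8% ± 1.51 in Tiny. By rat, the share was 25.6%, 23.8%, 26.9%, 23.95% and 25.8% in Large and 28.4%, 27.4%, 26.1%, 30.1% and 26.96% in Tiny. The Large rats were mostly below the Tiny rats, and CONT SCI + Large replicate 3 overlapped them. Few relabellings of the rats gave a difference of the size observed, -2.59 percentage points (exact permutation test, two-sided, p = 0.0159, adjusted over the 3 library measures p = 0.0476). This call was lost when any 1 of 8 rats was left out, with adjusted p between 0.0714 and 0.119 by the exact permutation test. It held without replicate 3 of Large and without replicate 3 of Tiny. In No SCI + Standard the share ran from 24.6% to 32.3%, overlapping both cage groups.

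The lower share in Large lay in a single gene, ENSRNOG00000002911, the most counted gene in all 10 libraries, singled out after its values were seen. It took 9.96%, 7.02%, 9.82%, 7.22% and 10.6% of the reads in the Large rats and 11.9%, 12.0%, 10.5%, 12.8% and 10.9% in the Tiny rats. CONT SCI + Large replicates 2 and 4 were far below all Tiny rats, and replicate 5 overlapped them. In No SCI + Standard this gene took 10.1% to 14.6%, above 4 of the 5 Large rats and over the range of the Tiny rats. The genes of ranks 2 to 10 together took 16.3% ± 0.837 (SD, n = 5) in Large and 16.2% ± 0.748 in Tiny, a difference of 0.11 percentage points (exact permutation test, adjusted p = 0.841). Gene by gene, ENSRNOG00000002911 differed by -0.44 ± 0.15 on the log2 scale (SE, 95% interval -0.76 to -0.13), with an unadjusted p of 0.00947 and an adjusted p of 1.00 in edgeR. Of the 5 genes that ranked among the 10 most counted in every library, it was the 1 with an unadjusted p under 0.05. A gene of this size also affects the share that is left for all others, which the TMM scaling is meant to offset.

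**Figure D3:**
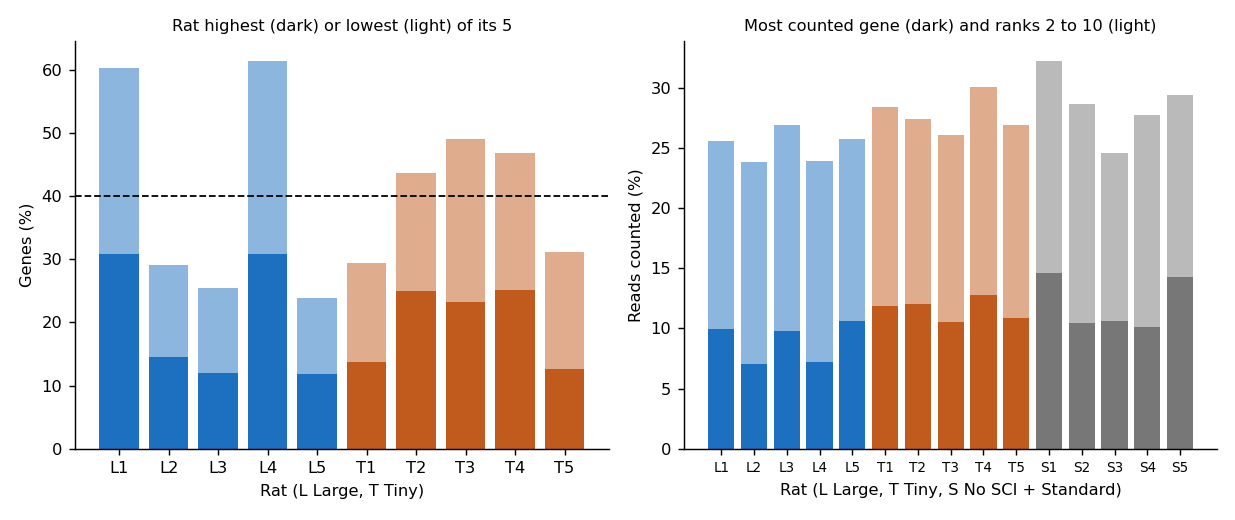
Left, the share of 8340 genes in which a rat was the highest (dark) or lowest (light) of the 5 rats of its group, with the equal share of 40% as a dashed line; right, the share of reads held by the most counted gene (dark) and by ranks 2 to 10 (light) in 15 libraries (L Large, T Tiny, S No SCI + Standard). Large replicates 1 and 4 stand at 60.2% and 61.4% on the left, and the dark bars of Large replicates 2 and 4 are the lowest on the right.

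The absence of calls was read against the size of change that this design could resolve. The median standard error of a log2 difference was 0.17, and the estimate needed for an unadjusted p of 0.05 was 0.37 at the median gene, or 1.29-fold. To be the single gene called among 11920, a gene needed a p of 4.19e-06, and thus at the median a difference of 1.29 on the log2 scale, or 2.44-fold. Had 100 genes been called together, the threshold would have been a p of 0.000419 and the median difference needed 0.80, or 1.74-fold. These are estimates that had to be observed, so a true change of exactly that size would often have been missed.

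Abundance set the precision up to a point. The 3580 genes below 100 reads per library needed 1.504-fold for an unadjusted p of 0.05 and 4.15-fold for a single call. The 6148 genes from 100 to 1000 reads needed 1.25-fold and 2.18-fold. The 1937 genes from 1000 to 10000 reads needed 1.21-fold and 1.95-fold. The 255 genes above that needed 1.25-fold and 2.19-fold, no less than the genes from 100 to 1000 reads. An observed 2-fold change would have been enough for a single call in 27.3% of all genes tested, and in 2 of the 3580 scarce ones. As 1 of 100 calls it would have been enough in 66.3% of all genes.

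Large changes were nevertheless outside the interval of most genes. The 95% interval of the difference, taken gene by gene without adjustment, lay within a 2-fold change in either direction for 10675 of 11920 genes (89.6%). It lay within a 1.5-fold change for 7430 genes (62.3%). Below 100 reads per library the 2-fold share was 73.8% and the 1.5-fold share 21.1%. From 100 to 1000 reads they were 96.2% and 78.4%. A 2-fold change was compatible with the interval of the other 1245 genes, 939 of them below 100 reads. For the 10 most counted genes every interval lay within 2-fold, and 9 of the 10 within 1.5-fold.

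**Figure D4:**
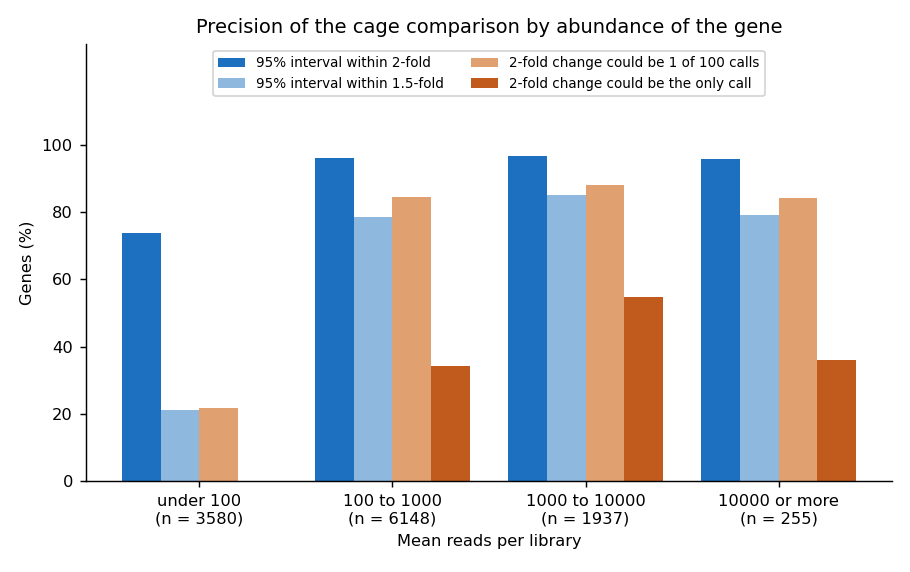
Bars give the percentage of genes, in 4 classes of mean reads per library, whose 95% interval lay within 2-fold (dark blue) or 1.5-fold (light blue), and for which an observed 2-fold change would have passed as 1 of 100 calls (light orange) or as the only call (dark orange). The dark blue bar is at 73.8% below 100 reads and between 95.7% and 96.7% in the other 3 classes, and the dark orange bar is highest, 54.8%, between 1000 and 10000 reads.

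The spread between rats of one cage group was larger than the difference between the cages in most genes. Over the 8340 genes with a mean of at least 100 reads, the median SD within a group was 0.21 on the log2(CPM + 1) scale, while the median difference between the group means was 0.08. The difference between the means was larger than 1 within-group SD in 863 genes (10.3%) and larger than 2 in 53 genes (0.635%). Means of 5 rats differ by less than 1 SD in most genes even without a cage effect, so nothing is read from these shares. The mean SD was 0.26 in Large and 0.22 in Tiny, and 63.4% of the genes varied more in Large. The difference in spread of 0.04 did not exceed what relabelling the rats gave (exact permutation test over 252 relabellings, two-sided, p = 0.373). It fell to 0.014 without CONT SCI + Large replicate 1 and to 0.0090 without CONT SCI + Large replicate 4. The 5 most variable genes had within-group SDs from 1.70 to 3.30, and all 5 overlapped between the cages.

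Replicates 1 and 4 of Large stood at the ends of their group most often. CONT SCI + Large replicate 1 was the highest or the lowest of its group in 60.2% of these genes and replicate 4 in 61.4%, where an equal share would be 40%. The other Large rats reached 29.1%, 25.4% and 23.8%. Replicates 1 and 4 also stood at opposite ends, one highest and the other lowest, in 3409 genes (40.9%), where an equal share would be 10%. That 10% holds for a pair not chosen by its extremes, and the choice of these rats favours opposite ends. In Tiny the shares were more even, from 29.4% in replicate 1 to 49.0% in replicate 3. No rat was left out on this ground, and the part of these rats in the lack of calls was not tested beyond leaving out each in turn.

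The cage difference was then set beside exercise after the same injury. In the exercise set, which shares no library with the cage groups, all rats lived in tiny cages, and contused rats that walked in shallow water (CONT SCI + SWW, n = 5) or swam (CONT SCI + SWIM, n = 5) were compared with contused rats without exercise (CONT SCI, n = 4). The labels give 11.5 weeks after injury for the exercised rats too, but the study's methods place their collection later. Exercise and time after injury may therefore both differ in these comparisons, and cannot be told apart. With the same test, SWW called 96 of 12642 genes (0.759%), 60 higher (0.475%) and 36 lower (0.285%). SWIM called 1 of 12502 genes (0.008%). At an unadjusted p under 0.05 the counts were 2627 genes for SWW (20.8%) and 1638 for SWIM (13.1%), beside 346 for the cage. The precision was similar, with a median standard error of 0.16 for SWW and 0.18 for SWIM beside 0.17 for the cage.

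Genes called for shallow water walking had median differences of smaller size between the cages than for SWW. Of the 60 higher genes, 57 were tested here, and 15 of them (26.3%) were higher in Large, beside 48.7% of all genes whose SWW estimate was above 0. Their median log2 difference was 0.81 for SWW and -0.11 for the cage. Of the 36 lower genes, 30 were tested, and 11 were lower and 19 (63.3%) higher in Large, beside 56.1% of all genes with an SWW estimate below 0. Their median was -0.61 for SWW and 0.03 for the cage. None of the 87 genes had an unadjusted p under 0.05 between the cages in edgeR. Over all genes this share was 3.48% (226 of 6491) where the SWW estimate was above 0 and 2.17% (117 of 5383) where it was below, so 0 of 87 is near the background. The SWW estimates of the 87 genes are large in part because the genes were chosen for them. The single gene called for SWIM had a log2 difference of -1.95 there and 0.48 between the cages.

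**Figure D5:**
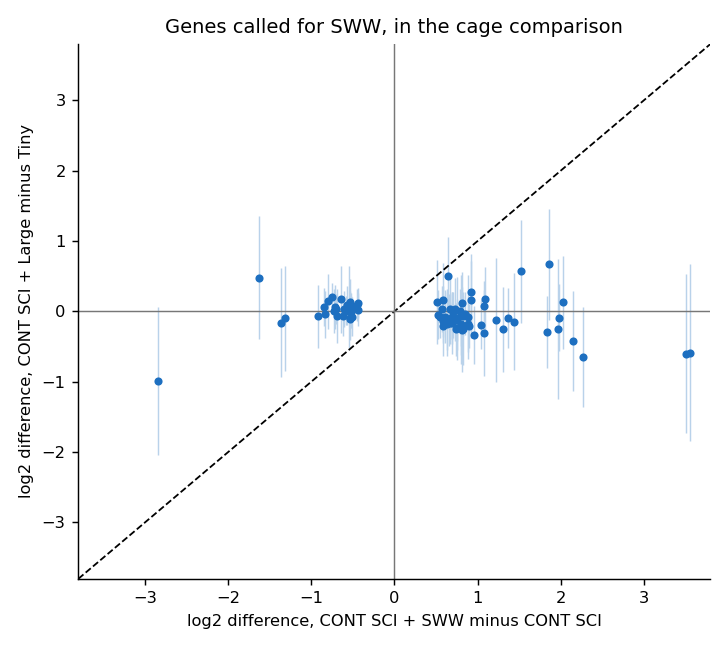
Each of 87 points is a gene called for CONT SCI + SWW against CONT SCI, with its log2 difference there on the horizontal axis and its log2 difference between Large and Tiny on the vertical axis (bars are 95% intervals, the dashed line marks equal values). The points lie between -0.99 and 0.67 on the vertical axis, and the genes were chosen for their values on the horizontal axis.

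A test of the difference between both effects, fitted over the 4 groups, called 12 of 12647 genes for SWW (0.0949%), with 1747 genes (13.8%) at an unadjusted p under 0.05. The cage difference was below the SWW difference in 9 of them and above it in 3. Of these 12 genes, 11 were among the 96 called for SWW. For the 10 genes with both estimates, the median size was 0.93 for SWW and 0.26 for the cage, and the signs were opposite in all 10. Both are favoured by the choice of genes with a large gap between the effects, and nothing is read from them. With single rats left out the count ran from 0 to 38, and with DESeq2 it was 213. For SWIM the same test called 0 of 12618 genes (0%), with 1333 genes (10.6%) at an unadjusted p under 0.05, and 74 genes with DESeq2. This test was less precise than either comparison, with a median standard error of 0.25 for SWW and 0.26 for SWIM. The DESeq2 fits kept every gene with a count, so their gene sets are not those of edgeR and the counts are not shares of the same total.

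The 4 named genes can be placed beside exercise in the same way. ENSRNOG00000006766 differed by -0.02 ± 0.21 (SE) for SWW and 0.19 ± 0.31 for SWIM. ENSRNOG00000000900 differed by -0.06 ± 0.15 for SWW and 0.13 ± 0.14 for SWIM. ENSRNOG00000019445, lower in the Large rats, differed by 1.52 ± 0.51 for SWW, with an adjusted p of 0.136 in edgeR, and by 0.21 ± 0.52 for SWIM. The adjusted p of the difference between the cage and the exercise effect was 0.0594 for SWW and 0.308 for SWIM in edgeR. This gene was chosen for its cage difference, which favours a large gap between the effects, so nothing is read from these values. The most counted gene, ENSRNOG00000002911, differed by -0.15 ± 0.14 for SWW and by -0.44 ± 0.15 for SWIM, with an adjusted p of 0.259 for SWIM in edgeR. None of these exercise differences passed the adjusted threshold.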

How the data were processed

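Per the labels and the study's methods, poly(A) RNA of liver was sequenced from stranded libraries, and the authors aligned the reads to the rat genome build rn6 with STAR and used HTSeq to count them on genes of the Ensembl annotation, without the mitochondrial genes. FastQC 0.10.1 and HTSeq stand in the submitters' processing notes. The deposited values are raw counts per gene and sample, not normalized, and all 37 columns could be assigned to a labelled sample. Any pair of rats in a group differed beyond sampling noise, so no library was a copy of another in its group. Each library was taken as 1 replicate.

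From these counts, the 2 groups compared were fitted in R 4.3.3 by the quasi-likelihood method of edgeR 4.0.16, with robust glmQLFit and TMM scaling. Genes were kept by filterByExpr, whose count limit was 10 and whose limit on the total was 15. A Benjamini-Hochberg adjusted p under 0.05 was a call. The SE is the size of the log2 difference divided by the square root of F, and the interval uses the test's own degrees of freedom. The difference needed is that SE times the t quantile for the p in question. CPM were scaled over the 15 In-Cage libraries. Alternatives were DESeq2 1.42.0, RLE normalization, no filter, all 3 In-Cage groups in one fit, a replicate block, non-robust estimation and each rat left out. The scripts were tested on simulated data.

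The 47357 genes of the RefSeq table at hand matched 0 of the identifiers, so 27 gene lists (459 symbols) and the rules that name genes by symbol were not used. Since identifiers without a name tell little, 2 genes per direction are identified. These are the 3 that DESeq2 called and the most counted gene, while 1 gene called without 1 rat and the most variable genes are given by value. The samples, lists and tests were chosen with earlier results of these data known. Precision depends on the number of rats, and at low counts also on depth.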

Additional observations from a re-analysis of the deposited data

Results flagged for a closer look

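In ENSRNOG00000006766, CONT SCI + Tiny replicate 2 stood at 26.1 CPM, apart from the other Tiny rats at 17.4 to 18.9 CPM. In ENSRNOG00000000900, CONT SCI + Tiny replicate 1 stood at 61.9 CPM, apart from the other Tiny rats at 51.0 to 54.0 CPM. Dixon's test, applied to 24 groups of 5 values, marked these rats, and chance marks about 1 group in 20. The cage difference differed from the SWW difference in 12 genes by the interaction test of edgeR, a count that single rats moved between 0 and 38.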

How the results depend on the processing

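The count of 0 genes between the cages stayed at 0 with RLE normalization, without the filter, with all 3 In-Cage groups in one fit and with non-robust estimation, and was 3 with DESeq2. With each rat left out it ran from 0 to 1, the 1 without CONT SCI + Tiny replicate 2. The number of genes with an interval within 2-fold ran from 10303 to 10776 over all alternatives. The count of genes differing from the SWW effect was 213 with DESeq2 and ran from 0, without SWW replicate 3 or CONT SCI replicate 2, to 38, without SWW replicate 5. It stayed within 1.5 times of 12 without Large replicate 5, Tiny replicate 2 or Tiny replicate 3. For SWIM the count was 74 with DESeq2 and ran from 0 to 1 with single rats left out, the 1 without Tiny replicate 2 or SWIM replicate 3. The cause of these differences was not tested. The difference in the share of the 10 most counted genes ran from -3.02 to -2.02 percentage points with single rats left out, and was 0.11 without the most counted gene, an alternative added after the data were seen. The difference in genes detected ran from -68.3 to 15.7 with single rats left out. The differences in reads and in spread kept their direction, and the difference in spread ran from 0.0090 to 0.057 with single rats left out. The medians of gene lists were not run, because no list member could be matched.

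No sign of pairing by replicate number was seen, but a weak pairing is not excluded. The labels do not say what the numbers mean. Deviations of same-numbered Large and Tiny rats correlated between -0.384 and 0.045, with 0 of 5 pairs above 0.1, and no Large rat correlated best with its own number. With the number as a block, 0 genes were called between the cages, 0 for the SWW difference and 0 for the SWIM difference.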
